A study of Oryza sativa with 44 samples.

Results

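The chromosome 6 segment described here is a stretch of the rice genome that was picked for genes at which the NIP wild type stands apart from all other groups of the series. It was defined by locus numbers, from LOC_Os06g36000 to LOC_Os06g41300, with 2 loci of the interval left out, and by a mean of at least 1 CPM (counts scaled to the library total, per 1000000) in at least 1 of the 15 groups. Of 510 rows of the count table in the interval, 224 met that minimum and are the members. The other 286 rows stayed under it, and 87 of them had no count in any library. The whole table has 58089 rows, of which 26617 meet the same minimum. The interval was chosen because of how NIP differs in these same libraries, so every contrast with NIP is given below as a description with no test. Contrasts that leave NIP out were tested.

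The series holds 44 RNA-seq libraries of Oryza sativa seedlings, grown in nutrient solution over 2 weeks. The organ sampled is not stated in the labels. The lines each affect 1 YTH gene. YTH proteins recognise adenosines of RNA that carry a methyl group. Lines labelled NIP were the CRISPR knockouts osythdf3c, osythdf1c, osythdf5c, osythdf3b, osythdf4c, osythdf2b and osythdf1b, the knockdowns RNAi-OsYTHDF2C and RNAi-OsYTHDC1A, and the overexpression line OE-OsYTHDF1A. Lines labelled DJ were the CRISPR knockouts osythdf1a, osythdf2a and osythdf3a. The untransformed plants were the wild types DJ and NIP. Each group had 3 libraries, apart from osythdf2a with 2, and osythdf2a therefore meets any rule on non-overlapping libraries more easily. How many independent transformants stand behind a line is not given in the sources used here. Replicates are biological according to the series text, and p-values here reflect only how far these libraries spread. Library totals ranged from 13541543 to 24099581 counts. In osythdf3a replicate 3, 12.5% of the counts fell on 2 loci of chromosome 9, LOC_Os09g00999 and LOC_Os09g01000.

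Genes that lie close together on a chromosome are inherited together, so plants that share a stretch of chromosome carry the same versions of its genes and of the sequences beside them that control transcription. Cultivars of rice differ along such stretches in promoters, coding sequence and the presence of whole genes. Reads of every plant are aligned to 1 reference genome, and a gene whose sequence departs from that reference, or is missing, yields few counts whatever its activity. The files do not pair the locus IDs with gene names, so members are given by ID and no function is stated for them. For the same reason the targeted YTH transcripts and markers of tissues were not analysed here, and the labels of the lines stand unchecked. Sequence variants were not analysed here, and for a member with few counts a low level and a differing or missing sequence cannot be told apart. Fewer cells of a type and less RNA per cell cannot be told apart either.

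NIP lay outside all 14 other groups at 20 members, which is 8.93% of the segment. It was below them at 17 members and above them at 3. The count was also 20 without osythdf3a replicate 3, and 12 with a pseudocount of 1 CPM. A gene was counted when the 3 NIP libraries lay on 1 side of all 41 other libraries and the NIP mean was at least 2-fold from the nearest other group mean on log2(CPM + 0.1). By the same rule 0.815% of all rows at the CPM minimum were outside in NIP, 0.364% below and 0.451% above. Since the segment was picked for this contrast, nothing is read from the difference between these shares. On the rest of chromosome 6, 2 of 1785 measured loci were below and 6 above all other groups in NIP. Such loci were also found on other chromosomes, with 25 below and 17 above among 1483 measured loci of chromosome 12 and 15 below and 5 above among 1495 of chromosome 11.

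**Figure D1:**
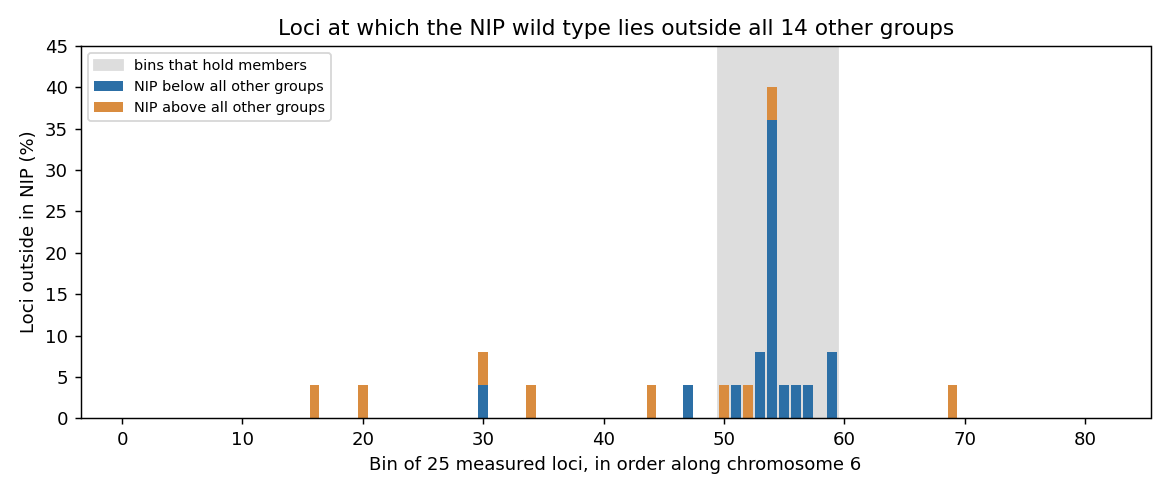
Percent of measured loci at which NIP lies outside all 14 other groups (vertical axis), in consecutive bins of 25 measured loci along chromosome 6 (horizontal axis, order by locus ID). Blue bars are loci below and orange bars loci above all other groups in NIP, and grey shading covers the bins that hold members. Bin 54 reached 40%, against 0 to 8% in every other bin.

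The members below all other groups were concentrated in the middle of the interval. Between LOC_Os06g38480 and LOC_Os06g38900 lie 18 members, and 10 of them were below all other groups in NIP. The longest unbroken run held 7 neighbouring members, from LOC_Os06g38760 to LOC_Os06g38900, with 8 further rows among them that stayed under the CPM minimum. A run of 2, LOC_Os06g41120 and LOC_Os06g41240, closed the segment. The other 8 low members and the 3 high ones stood singly between members that were not outside.

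LOC_Os06g41120 had the highest level per length of the 17 low members in the other groups. It ranged from 46.3 to 195 CPM over the 41 other libraries, with a median of 91.3 CPM, and in DJ it measured 93.4, 101 and 91.3 CPM, against 0.336, 0.388 and 0.528 CPM in NIP. The groups did not overlap, and the gap between NIP and the lowest other library was far wider than the spread within either. The mean in DJ was 229-fold that in NIP (exact 95% interval 159 to 343). Intervals and floors on folds cover counting error only. Its median over the other groups was 136 FPKM (fragments per kilobase, scaled to depth), against 0.605 FPKM in NIP.

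LOC_Os06g40240 showed the widest ratio among the low members with over 3 counts in NIP. Its 41 other libraries lay between 24.5 and 51.6 CPM, and DJ stood at 50.2, 49.3 and 51.6 CPM, against 0.168, 0.172 and 0.044 CPM in NIP. DJ exceeded NIP 390-fold (exact 95% interval 205 to 854). It is the longest of the low members, with 5578 bases.

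LOC_Os06g38480 opens the dense middle stretch. It measured 19.7, 19.96 and 21.2 CPM in DJ, against 0.042, 0.0861 and 0.088 CPM in NIP, and the 41 other libraries ranged from 7.93 to 21.9 CPM. The ratio of DJ to NIP was 283 (exact 95% interval 121 to 875). Next in this stretch, LOC_Os06g38650 kept some counts in NIP: 6.09 ± 0.50 CPM in DJ and 0.900 ± 0.24 CPM in NIP (SD, n = 3 each), a 6.74-fold difference. LOC_Os06g38730 averaged 8.61 ± 1.5 CPM in DJ and 0.0998 ± 0.048 CPM in NIP, 86.3-fold apart.

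The unbroken run began with LOC_Os06g38760, at 2.17 ± 0.41 CPM in DJ and 0.0864 ± 0.045 CPM in NIP (SD, n = 3 each). LOC_Os06g38764 was at 0.942 CPM in DJ and rested on 3 counts over the NIP libraries (21.8-fold, exact 95% interval 7.06 to 109). LOC_Os06g38770 was at 0.875 CPM in DJ and rested on 1 count in NIP (61.6-fold, exact 95% interval 10.5 to 2484). LOC_Os06g38780 was the exception in the run, with 3.54 CPM in DJ and 0.531 CPM in NIP, or 37 counts. The last 3 members of the run had no count in any NIP library. With 3 counts over the NIP libraries as the floor, LOC_Os06g38830 was at least 10.5-fold, LOC_Os06g38890 at least 56.4-fold and LOC_Os06g38900 at least 12.7-fold higher in DJ.

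Counts in this run were modest in the other groups too. LOC_Os06g38890 reached 7.64 CPM in its highest group, LOC_Os06g38900 2.13 CPM and LOC_Os06g38770 1.42 CPM. Their lowest other libraries still held 1.68, 0.123 and 0.307 CPM. The counts that separate NIP from the other groups at LOC_Os06g38900 and LOC_Os06g38830 are therefore few in some libraries.

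**Figure D2:**
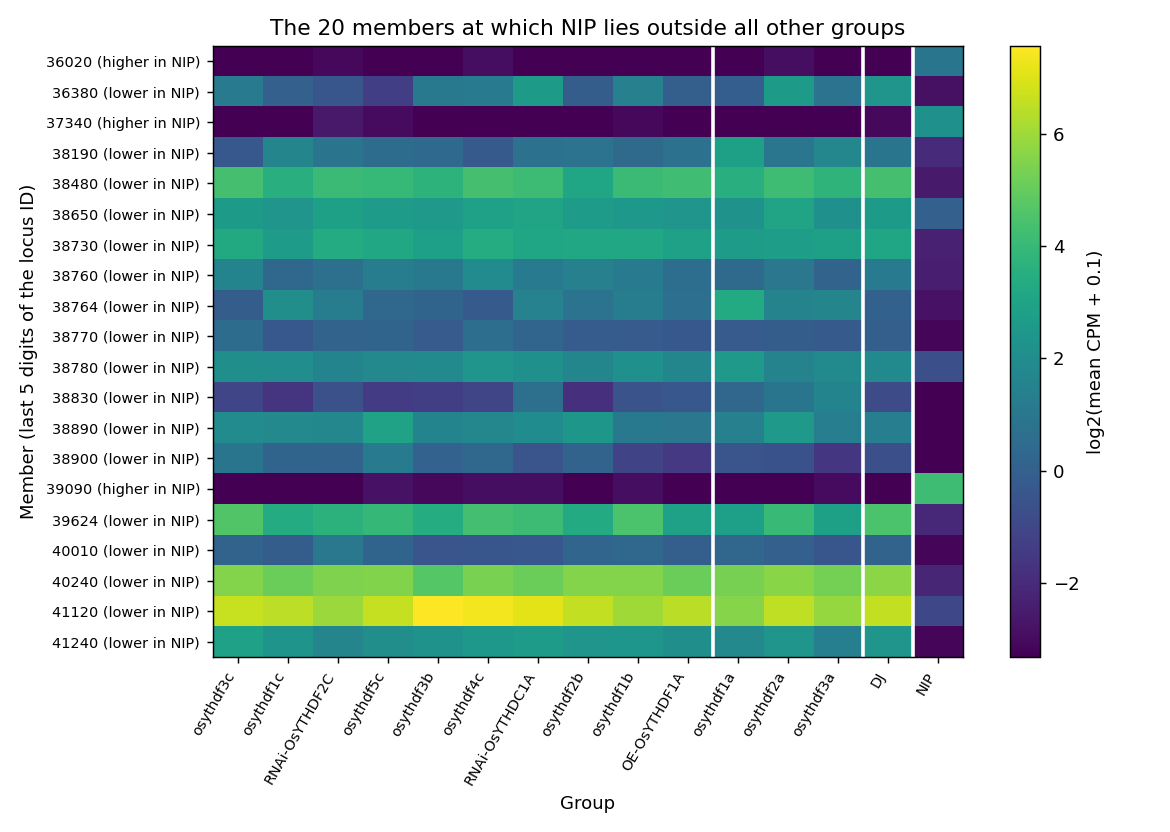
Mean level as log2(CPM + 0.1), by colour, of the 20 members outside in NIP (rows, in the order of the table) in the 15 groups (columns: 10 lines labelled NIP, 3 lines labelled DJ, DJ, NIP, parted by white lines). The last column is dark in 17 rows and bright in 3, LOC_Os06g36020, LOC_Os06g37340 and LOC_Os06g39090.

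Members not outside in NIP were interleaved with the low ones. Of the 8 such members between LOC_Os06g38480 and LOC_Os06g38900, LOC_Os06g38550 had a median of 16.4 CPM over the 41 other libraries and 16.8 ± 0.43 CPM in NIP, and LOC_Os06g38680 had a median of 10.8 CPM and 11.5 ± 0.42 CPM in NIP (SD, n = 3). Both NIP means fell inside the range of the others. LOC_Os06g38750 had no count in NIP, but it missed the rule because osythdf3b held 0.0158 CPM, or 1 count in 3 libraries. The remaining 5 were under 4 CPM in NIP and overlapped with the other libraries. These 8 members are named here after their values were seen.

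Low members outside the dense stretch were spread over both flanks. LOC_Os06g39624 stood at 23.6, 21.3 and 22.8 CPM in DJ, against 0.126, 0.129 and 0.132 CPM in NIP, with 5.82 to 25.6 CPM over the 41 other libraries. The ratio of DJ to NIP was 175 (exact 95% interval 91.7 to 383). LOC_Os06g41240, the last member, averaged 4.99 ± 0.72 CPM in DJ and rested on 1 count in NIP (349-fold, exact 95% interval 62.0 to 13822). LOC_Os06g36380 ranged from 0.303 to 6.06 CPM among the other groups, against 3 counts in all in NIP. LOC_Os06g38190 lay between 0.691 and 7.11 CPM in the other groups, against 0.142 CPM in NIP, and LOC_Os06g40010 between 0.625 and 1.94 CPM, against 1 count in NIP.

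The 3 members above all other groups in NIP were all but silent elsewhere. They reached the CPM minimum through NIP alone and so had to be higher there. LOC_Os06g39090 had no count in DJ, against 18.9, 17.7 and 17.3 CPM in NIP, and its highest value over the 41 other libraries was 0.1003 CPM. It was at least 319-fold lower in DJ. LOC_Os06g37340 had 1 count over the DJ libraries, against 4.45, 4.48 and 4.005 CPM in NIP, so that NIP exceeded DJ 230-fold (exact 95% interval 40.9 to 9100). LOC_Os06g36020, the first member of the segment, had no count in DJ, against 1.85, 1.81 and 1.76 CPM in NIP, and was at least 32.0-fold lower in DJ. All 3 are single members between neighbours that were not outside.

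Length and level of the low members were compared with those of the rest as a description. The 17 low members had a median length of 2219 bases, against 1737 bases for the 204 members that were neither low nor high in NIP. Their median level over the other groups was 2.13 FPKM, against 4.94 FPKM for the 204.

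The edges of the interval were less marked than its middle. The last 3 measured loci before the segment, LOC_Os06g35940, LOC_Os06g35960 and LOC_Os06g35970, were not outside in NIP, whereas the first member was. The last 2 members were outside, and LOC_Os06g41340, LOC_Os06g41360 and LOC_Os06g41384, the first 3 measured loci after the segment, were not. At LOC_Os06g41360 the other group means ran from 57.2 to 113 CPM, against 114 CPM in NIP, so that the highest of them was well within 2-fold of NIP. At the CPM minimum, LOC_Os06g38590 was the member nearest the threshold, with a highest group mean of 1.12 CPM, and LOC_Os06g38115 with 0.912 CPM was the nearest row below it.

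The same rule was applied to every other group in turn. At least 1 member was outside in osythdf1a (6 members, with a background of 1.59% of all rows), osythdf3c (3, background 1.28%), osythdf2a (3, background 1.52%), OE-OsYTHDF1A (2, background 0.609%), osythdf4c (1, background 0.349%) and osythdf3a (1, background 0.481%). The shares of members ranged from 0.446% to 2.68% in these 6 groups, near their backgrounds. No member was outside in DJ (background 0.195%), osythdf3b (background 0.338%), RNAi-OsYTHDC1A (background 0.255%), RNAi-OsYTHDF2C (background 0.18%), osythdf1c (background 0.173%), osythdf5c (background 0.173%), osythdf1b (background 0.0977%) or osythdf2b (background 0.0451%).

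These private states of single lines did not form runs. LOC_Os06g36530 was present only in osythdf3a, at 11.3, 12.7 and 10.3 CPM, and its highest value in any other library was 0.0738 CPM. LOC_Os06g39240 averaged 51.5 ± 1.2 CPM in osythdf2a (SD, n = 2), and no other group mean exceeded 11.5 CPM. LOC_Os06g39515 was at 1.24 ± 0.16 CPM in osythdf3c (SD, n = 3) and at most 0.169 CPM in any other library. Like LOC_Os06g36530, it reached the CPM minimum through a single line and so had to differ there. LOC_Os06g38764 and LOC_Os06g38190, both low in NIP, had their highest means in osythdf1a, at 9.96 ± 1.3 and 7.11 ± 0.37 CPM (SD, n = 3). These loci are named after their values were seen.

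**Figure D3:**
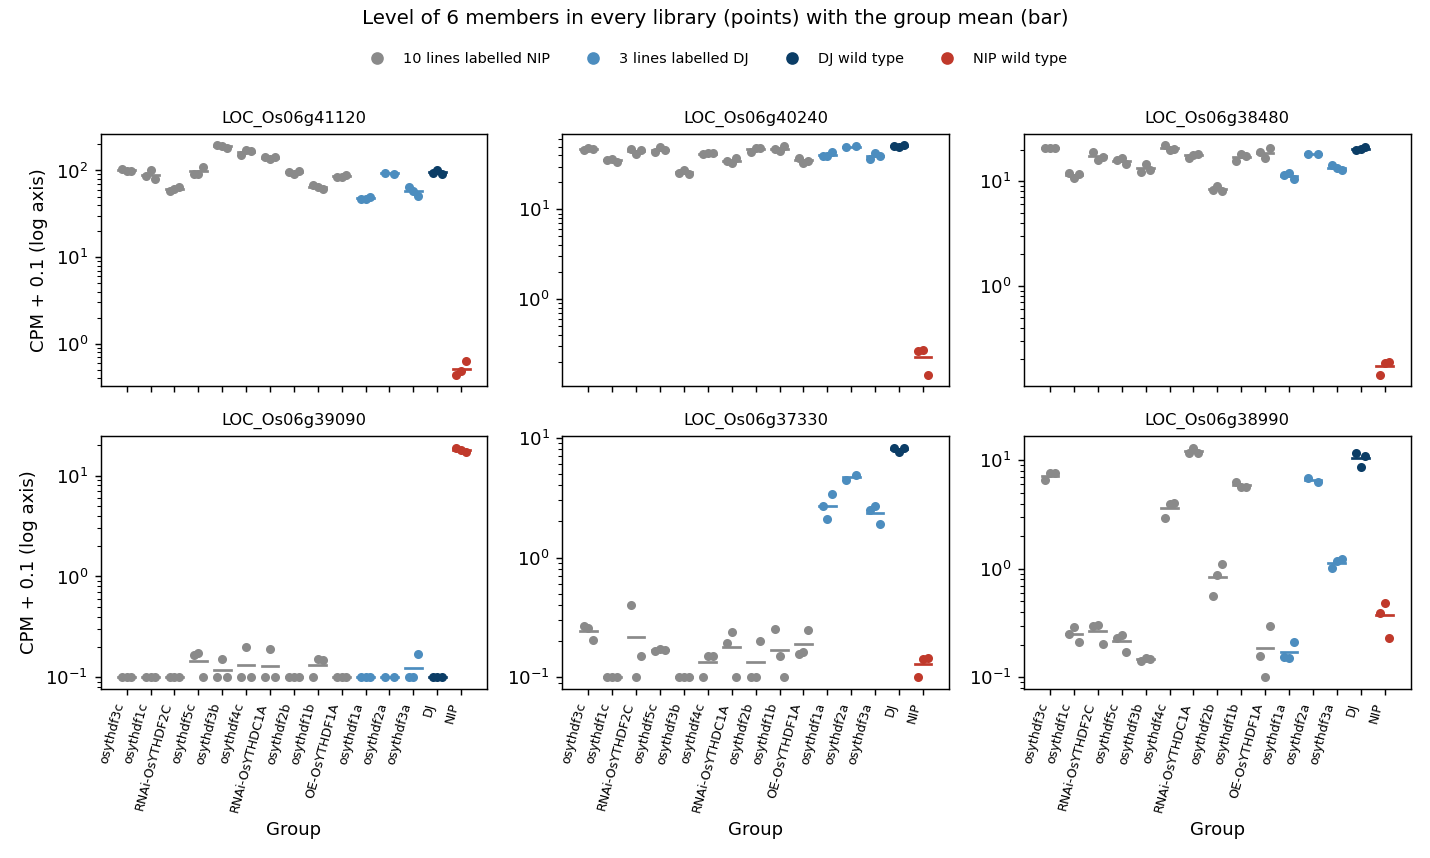
Level of 6 members as CPM + 0.1 on a log axis in every library (points) with the mean of each group (bar). The 10 lines labelled NIP are grey, the 3 lines labelled DJ light blue, DJ dark blue and NIP red. LOC_Os06g41120, LOC_Os06g40240 and LOC_Os06g38480 are low only in NIP, LOC_Os06g39090 is high only in NIP, LOC_Os06g37330 is higher in all libraries labelled DJ, and LOC_Os06g38990 splits the lines across both labels.

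Members were also read as on in a group with 1 CPM or more in each library, or as off with no more than 3 counts in each library. Of the 224 members, 134 were on in every group (59.8%, background 65.1%). Switching between groups was seen at 39 members (17.4%), against a background of 12.4% of all rows. DJ had 190 members on (84.8%, against 84.2% of all rows) and 7 off (3.12%, against 2.94%), and NIP had 166 on (74.1%, against 79.0%) and 23 off (10.3%, against 4.75%). Among members the NIP counts were the fewest on and the most off of the 15 groups. Over all rows both places were held by OE-OsYTHDF1A, with 75.4% on and 6.83% off. The choice of the segment by NIP favours both places of NIP among members and can add to the share that switches. Nothing is read from them.

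Members on in all 14 other groups and off in NIP numbered 5, with a background of 0.0601% of rows (16 in the whole table). They were LOC_Os06g38480, LOC_Os06g38730, LOC_Os06g38890, LOC_Os06g39624 and LOC_Os06g41240. The reverse, on in NIP and off in all others, was met by the 3 high members, with the same background of 0.0601% (16 rows). These 3 are members only through their level in NIP. Both counts rest on the contrast that chose the segment and are a description.

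Each group was then set against NIP on its own. A member was counted when all libraries of the group lay on 1 side of the 3 NIP libraries and the means were at least 2-fold apart. In DJ 83 members differed from NIP in this way (37.1%, background 34.6%). The smallest number among the lines labelled NIP was 45 in osythdf3b (20.1%, background 8.81%) and the largest 102 in osythdf3c (45.5%, background 38.8%). Between these stood osythdf2b with 58 (background 20.3%), osythdf1c with 63 (background 24%), osythdf4c with 67 (background 21.3%), OE-OsYTHDF1A with 70 (background 21.6%), osythdf5c with 72 (background 19%), RNAi-OsYTHDF2C with 78 (background 24.6%), RNAi-OsYTHDC1A with 81 (background 29.9%) and osythdf1b with 85 (background 34%). All 11 comparisons share the 3 NIP libraries. Members outside all other groups in NIP meet this rule in all 11 by definition. Nothing is therefore read from these shares beside their backgrounds.

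To follow the lines along the segment, members were taken at which the wild types did not overlap and differed at least 4-fold. This left 46 members (20.5%, background 14.2%), 38 higher in DJ (background 10.3%) and 8 lower in DJ (background 3.96%). All members outside in NIP are among the 46, so nothing is read from these shares beside their backgrounds. With a pseudocount of 1 CPM 17 members were left. At each of the 46 a line was placed on a scale with 0 at the NIP mean and 1 at the DJ mean of log2(CPM + 0.1). A value of at least 2/3 was read as the DJ side and a value of at most 1/3 as the NIP side.

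Counts of sides over the 46 members include members outside in NIP, and the choice of the segment favours the DJ side at these. The number of members on the DJ side was 42 of 46 in RNAi-OsYTHDC1A (among all rows with wild types this far apart, 64.9% were on the DJ side), 41 in osythdf1b (background 73.1%) and 37 in osythdf3c (background 67.1%). It was 28 in osythdf4c (background 35.3%), 27 in osythdf1c (background 25.6%), 27 in RNAi-OsYTHDF2C (background 26.1%), 26 in OE-OsYTHDF1A (background 21.7%), 25 in osythdf5c (background 17.5%), 23 in osythdf2b (background 24%) and 23 in osythdf3b (background 6.23%). Of the lines labelled DJ, osythdf2a had 40 members on the DJ side (background 84.8%), osythdf1a 29 (background 43%) and osythdf3a 28 (background 46.1%).

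The number on the NIP side ran from 1 in osythdf2a and 2 in RNAi-OsYTHDC1A to 15 in osythdf1a, osythdf1c, RNAi-OsYTHDF2C and osythdf5c and 21 in osythdf3b. The label of a line did not order these numbers: osythdf1a, labelled DJ, had as many members on the NIP side as 3 lines labelled NIP. In 16 members all 13 lines were on the DJ side (background 1.93%), and in none were all 13 on the NIP side. All 16 belong to the 20 members outside in NIP, an overlap that the definitions favour. At the other 4 of the 20, LOC_Os06g36380, LOC_Os06g38190, LOC_Os06g38830 and LOC_Os06g38900, at least 1 line lay between the wild types or on the NIP side. Without the 16, the DJ side held 7 of the other 30 members in osythdf3b and in osythdf2b, 9 in osythdf5c, 10 in OE-OsYTHDF1A, 11 in osythdf1c and in RNAi-OsYTHDF2C and 12 in osythdf4c. It held 21 of the 30 in osythdf3c, 25 in osythdf1b and 26 in RNAi-OsYTHDC1A, and in the lines labelled DJ 13 in osythdf1a, 24 in osythdf2a and 12 in osythdf3a. No share over all rows was taken for the NIP side or for the 30. These counts are a description and are not read as particular to the segment.

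**Figure D4:**
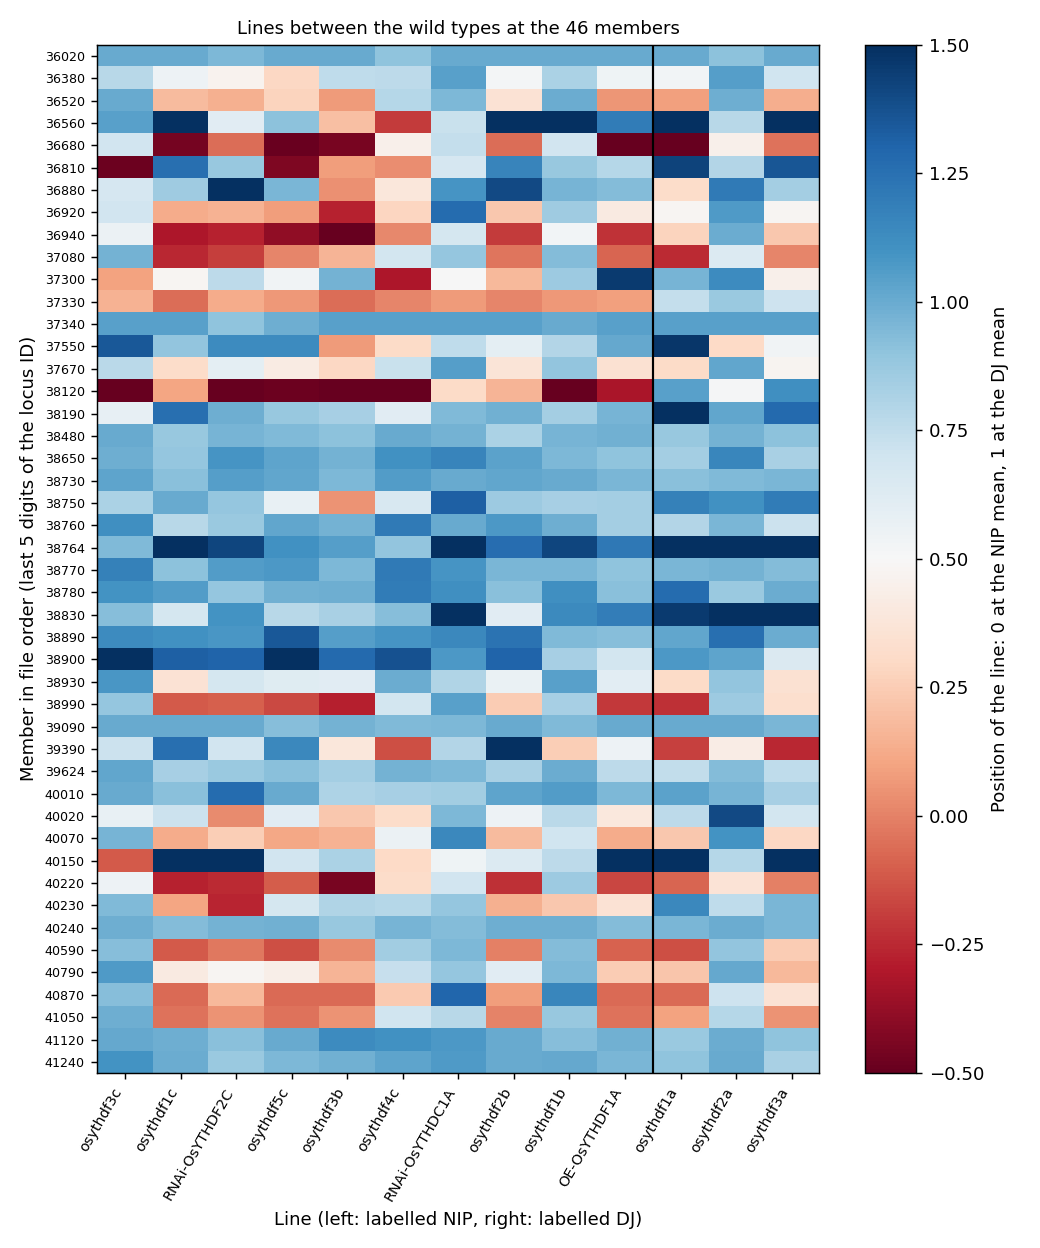
Position of each of the 13 lines (columns) between the wild types at the 46 members (rows, in the order of the table), from 0 at the NIP mean (red) to 1 at the DJ mean (blue) of log2(CPM + 0.1), with colours capped at -0.5 and 1.5. The block from LOC_Os06g38480 to LOC_Os06g38900 is blue in nearly all lines, and red stretches lie on both sides of it in some lines only.

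In every line the longest run of members on the DJ side lay in the middle of the segment. Most of those among the 46 that lie from LOC_Os06g38190 to LOC_Os06g38900 are below all other groups in NIP. Runs on the DJ side there follow from the contrast that chose the segment and are a description. The run was longest in RNAi-OsYTHDC1A, with 20 consecutive members of the 46 from LOC_Os06g38190 to LOC_Os06g40070. It held 17 in osythdf3c (LOC_Os06g38480 to LOC_Os06g40010), 15 in osythdf1b and in osythdf2a (LOC_Os06g38190 to LOC_Os06g39090), and 13 in osythdf1a (LOC_Os06g38120 to LOC_Os06g38900) and in RNAi-OsYTHDF2C (LOC_Os06g38190 to LOC_Os06g38930). It held 12 in osythdf1c and OE-OsYTHDF1A (LOC_Os06g38190 to LOC_Os06g38900) and in osythdf3a (LOC_Os06g38120 to LOC_Os06g38890), 10 in osythdf4c (LOC_Os06g38760 to LOC_Os06g39090), 9 in osythdf2b (LOC_Os06g38190 to LOC_Os06g38780) and 7 in osythdf5c and osythdf3b (LOC_Os06g38760 to LOC_Os06g38900). LOC_Os06g38750 split the stretch in 3 lines, being on the NIP side in osythdf3b and between the wild types in osythdf5c and osythdf4c.

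Runs on the NIP side lay on the flanks, where several lines had runs on the DJ side instead. The choice of the segment left little room for NIP-side runs in the middle, so their place is a description. DJ-side runs there held 10 (LOC_Os06g36020 to LOC_Os06g37080) and 9 members (LOC_Os06g40220 to LOC_Os06g41240) in RNAi-OsYTHDC1A. They held 8 (from LOC_Os06g36020) and 7 (from LOC_Os06g40240) in osythdf1b, and 5 (from LOC_Os06g36020) and 8 (from LOC_Os06g40230) in osythdf3c. Shorter or similar ones were found in osythdf2a, osythdf4c and osythdf1a. Right of LOC_Os06g38900, osythdf1c had 5 on the DJ side (LOC_Os06g39090 to LOC_Os06g40020). RNAi-OsYTHDF2C, osythdf5c and osythdf2b had 4 there (LOC_Os06g39090 to LOC_Os06g40010), and osythdf3a had 3 (LOC_Os06g39624 to LOC_Os06g40020). Most members of these runs are outside in NIP. On the left, osythdf3b had 8 consecutive members on the NIP side (LOC_Os06g36520 to LOC_Os06g37080) and then 3 (LOC_Os06g37550 to LOC_Os06g38120), osythdf2b had 5 (LOC_Os06g36920 to LOC_Os06g37330), and osythdf1c, RNAi-OsYTHDF2C and osythdf5c had the same 3 (LOC_Os06g36920 to LOC_Os06g37080). On the right, osythdf3b, OE-OsYTHDF1A and osythdf1a each had 4 consecutive members from LOC_Os06g40590 to LOC_Os06g41050 on the NIP side. RNAi-OsYTHDC1A, osythdf1b, osythdf3c, osythdf4c, osythdf2a and osythdf3a had no run of 3 or more on the NIP side.

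LOC_Os06g40590, the first of that right run, shows the split by line. It averaged 25.4 ± 2.3 CPM in DJ and 1.88 ± 0.26 CPM in NIP (SD, n = 3 each). Among lines labelled NIP it stood at 22.2 CPM in RNAi-OsYTHDC1A, 21.5 CPM in osythdf1b, 21.2 CPM in osythdf3c and 17.3 CPM in osythdf4c, and between 1.27 and 2.02 CPM in the other 6. Among lines labelled DJ it was at 19.4 CPM in osythdf2a, 3.65 CPM in osythdf3a and 1.28 CPM in osythdf1a. LOC_Os06g41050, the last of the run, was at 2.40 CPM in DJ and 0.0144 CPM in NIP. It had 2.33 CPM in osythdf3c and 1.18 CPM in osythdf2a, and no count in osythdf1c, osythdf5c and OE-OsYTHDF1A.

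LOC_Os06g37080 and LOC_Os06g36520 are the ends of the left run in osythdf3b. LOC_Os06g37080 averaged 23.6 ± 2.3 CPM in DJ and 2.42 ± 0.64 CPM in NIP (SD, n = 3 each). It was at 22.0 CPM in osythdf3c, 20.3 CPM in osythdf1b, 18.1 CPM in RNAi-OsYTHDC1A, 11.5 CPM in osythdf4c and 10.4 CPM in osythdf2a, and at most 3.53 CPM in any other line. LOC_Os06g36520 was at 2.95 CPM in DJ and 0.014 CPM in NIP. It had 2.99 CPM in osythdf3c, 2.89 CPM in osythdf1b, 2.86 CPM in osythdf2a, 2.47 CPM in RNAi-OsYTHDC1A and 1.41 CPM in osythdf4c, and at most 0.267 CPM in the other 8 lines.

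Only 2 members separated the labels themselves. Every library labelled DJ was above every library labelled NIP at LOC_Os06g37330 and LOC_Os06g38120 (background 0.864% of rows), and no member was below in this way (background 1.09%). LOC_Os06g37330 ranged from 1.82 to 8.18 CPM, with a median of 3.26 CPM, over the 11 libraries labelled DJ, and from 0 to 0.298 CPM over the 33 labelled NIP. LOC_Os06g38120 ranged from 4.61 to 16.6 CPM, with a median of 12.9 CPM, in libraries labelled DJ, and from 0 to 3.71 CPM in those labelled NIP. At LOC_Os06g37330 alone among the 46 were all 10 lines labelled NIP on the NIP side and all 3 labelled DJ on the DJ side (background 7.34%).

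The contrasts that leave the NIP wild type out were tested with edgeR's quasi-likelihood test. Calls required at least 2-fold and an adjusted p under 0.05, by the Benjamini-Hochberg method over all genes of the fit. The 2-fold minimum applied to the fitted fold change. A mean over lines was taken on the fitted log2 scale, so its fold can differ from the ratio of mean CPM. DJ against the mean of the 10 lines labelled NIP gave 44 called members of 224 tested, 31 higher and 13 lower in DJ, with a background of 20.4% of all genes tested (13.9% higher and 6.5% lower). The member share of 19.6% was near that background. With library totals in place of TMM scaling the split was 35 higher and 6 lower. Without the fold minimum 166 members passed (74.1%, background 69.8%). The median log2 fold change was 0.10 over members and 0.02 over all genes.

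LOC_Os06g37330 and LOC_Os06g38120 were the members named by size in that contrast. LOC_Os06g37330 was at 8.18, 7.51 and 8.18 CPM in DJ, against a median of 0.0510 CPM and a highest value of 0.298 CPM over the 30 libraries of the lines (log2 fold change 7.21, SE 0.21, adjusted p = 1.06e-43, quasi-likelihood test of edgeR, Benjamini-Hochberg adjusted). LOC_Os06g38120 was at 10.8, 11.7 and 13.6 CPM in DJ, against 0 to 3.71 CPM in the lines (log2 fold change 4.33, SE 0.11, adjusted p = 6.90e-49, same edgeR test, Benjamini-Hochberg adjusted). No lower member met the naming rule of at least 5 CPM and non-overlapping libraries. Of the 17 members low in NIP, whose selection can favour few calls, 1 was called in DJ against the lines. Their log2 fold changes ran from -0.95 to 1.72, with a median of -0.15.

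Each line labelled NIP was then compared with the mean of the other 9, again on the fitted log2 scale. Called members numbered 63 in osythdf3c (35 higher, 28 lower; background 28.6%), 53 in osythdf3b (26 and 27; background 23.2%), 51 in OE-OsYTHDF1A (23 and 28; background 20%) and 47 in osythdf4c (22 and 25; background 20.4%). They numbered 44 in osythdf1c (21 higher and 23 lower, background 18.2%), 44 in RNAi-OsYTHDC1A (32 and 12, background 17.4%) and 40 in osythdf1b (23 and 17, background 18.1%). The fewest were 28 in RNAi-OsYTHDF2C (11 and 17, background 11%), 21 in osythdf5c (13 and 8, background 12.6%) and 21 in osythdf2b (10 and 11, background 8.46%). The fits tested 219 of the 224 members, and called shares of members between 9.59% and 28.8% were near the backgrounds. With library totals in place of TMM scaling, the split moved by more than 10 points in 7 of these lines, to 40 higher and 21 lower in osythdf3c, 15 and 39 in osythdf3b, 15 and 38 in OE-OsYTHDF1A, 40 and 7 in RNAi-OsYTHDC1A, 34 and 10 in osythdf1b, 11 and 11 in osythdf5c and 14 and 10 in osythdf2b. In osythdf4c it was 25 higher and 21 lower, which turns the balance, as it does in osythdf2b.

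**Figure D5:**
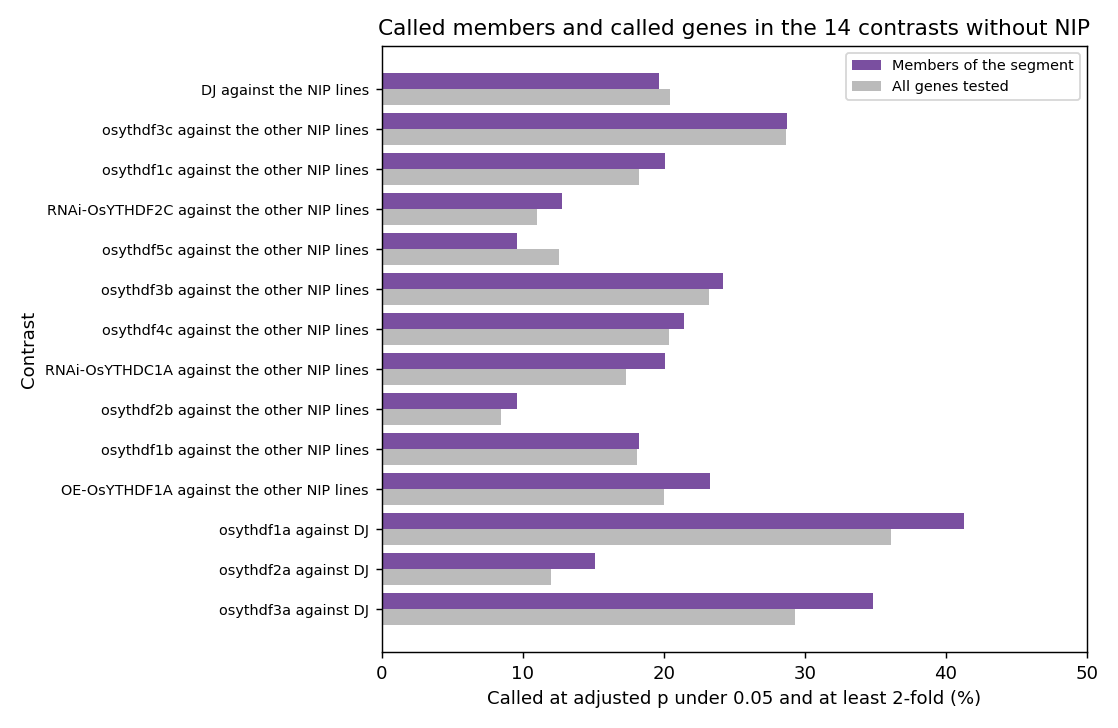
Percent called (horizontal axis, adjusted p under 0.05 and at least 2-fold, edgeR) among members of the segment (purple) and among all genes tested (grey) in the 14 contrasts without NIP (rows). Shares of members range from 9.59% in osythdf5c and osythdf2b to 41.3% in osythdf1a, each near the grey bar below it.

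Some named members moved in opposite directions in different lines. For lines labelled NIP, rose and fell mean against the mean of the other 9 lines, not against the NIP wild type. NIP itself stood at 252 CPM at LOC_Os06g36560. LOC_Os06g36560 rose in osythdf4c, to 344 ± 4.9 CPM (SD, n = 3), against 10.6 to 188 CPM over the 27 libraries of the other 9 lines (log2 fold change 2.94, SE 0.03, adjusted p = 3.23e-62, quasi-likelihood test of edgeR, Benjamini-Hochberg adjusted). The same member fell in osythdf1c to 10.9 ± 0.36 CPM, against 12.5 to 350 CPM in the other lines (log2 fold change -2.45, adjusted p = 7.93e-44, same edgeR test, Benjamini-Hochberg adjusted). LOC_Os06g36040 was at 0.194 ± 0.10 CPM in osythdf3c, below 0.903 CPM in the lowest other library (log2 fold change -4.46, SE 0.24), and rose in osythdf3b to 12.3 ± 1.3 CPM (log2 fold change 2.53, SE 0.09). LOC_Os06g39750 fell in OE-OsYTHDF1A to 4.14 ± 0.39 CPM, against a median of 63.6 CPM in the other lines (log2 fold change -3.49, SE 0.07). LOC_Os06g38990 was at 12.1 ± 0.79 CPM in RNAi-OsYTHDC1A, against a median of 0.199 and a highest value of 7.48 CPM (log2 fold change 4.36, SE 0.12). By counts pooled over libraries and scaled to their totals, RNAi-OsYTHDC1A was only 5.90-fold above the other 9 lines there.

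Further members met the naming rule in these lines. In osythdf3c LOC_Os06g40150 (log2 fold change 2.79) and LOC_Os06g41060 (2.78) rose and LOC_Os06g38450 fell (-2.96). LOC_Os06g40150 was at 43.6 CPM in osythdf3c, with 37.3 CPM in NIP. In osythdf1c LOC_Os06g39780 rose (3.39), as did LOC_Os06g37620 (1.30), and LOC_Os06g39230 fell (-1.92). LOC_Os06g39780 fell in OE-OsYTHDF1A (-2.49), where LOC_Os06g37300 (3.37) and LOC_Os06g40818 (1.99) rose. In RNAi-OsYTHDF2C LOC_Os06g36880 (1.85) and LOC_Os06g40960 (1.21) rose and LOC_Os06g39640 fell (-1.39). In osythdf3b LOC_Os06g36390 rose (2.10) and LOC_Os06g36920 fell (-1.88).

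LOC_Os06g38750 had 1 count over 3 libraries in osythdf3b, which put the other lines 106-fold above it (exact 95% interval 19.0 to 4190), and rose in RNAi-OsYTHDC1A to 5.12 ± 0.10 CPM (log2 fold change 2.70). In RNAi-OsYTHDC1A LOC_Os06g39712 (-1.39) and LOC_Os06g36840 (-1.06) fell, and LOC_Os06g39712 rose in osythdf5c (1.15). At LOC_Os06g36840 counts pooled over libraries and scaled to their totals put the other lines 1.83-fold above RNAi-OsYTHDC1A, under 2-fold. In osythdf4c LOC_Os06g41010 rose to 1332 ± 12 CPM (1.22), and LOC_Os06g39390 (-3.95) and LOC_Os06g37300 (-3.32) fell. LOC_Os06g39390 rose in osythdf2b (3.01), where LOC_Os06g36450 (-1.05) and LOC_Os06g38480 (-1.03) fell. LOC_Os06g38480 was still at 8.34 CPM in osythdf2b, against 0.0721 CPM in NIP. In osythdf1b LOC_Os06g39120 rose (1.26) and LOC_Os06g39470 (-1.84) and LOC_Os06g36090 (-1.37) fell. Among all members named in the 14 contrasts the largest adjusted p was 3.59e-07 (quasi-likelihood test of edgeR, Benjamini-Hochberg adjusted).

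The lines labelled DJ were compared with DJ, whose 3 libraries serve all 3 contrasts. Of 218 members tested, 90 were called in osythdf1a (36 higher, 54 lower; background 36.1%), 76 in osythdf3a (23 higher, 53 lower; background 29.3%) and 33 in osythdf2a (18 higher, 15 lower; background 12%). The shares of members were 41.3%, 34.9% and 15.1%, each somewhat above its background, and that gap was not tested. Without osythdf3a replicate 3 the number called in osythdf3a was 75. With library totals in place of TMM scaling the splits were 24 higher and 66 lower in osythdf1a and 12 higher and 64 lower in osythdf3a. The median log2 fold change was -0.11 over members and -0.02 over all genes in osythdf1a, -0.18 and -0.02 in osythdf3a, and -0.08 and -0.07 in osythdf2a.

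LOC_Os06g36530 was the member named first in osythdf3a. It had 11.4 ± 1.2 CPM in osythdf3a and no count in DJ, at least 204-fold higher with 3 counts over the DJ libraries as the floor. It reached the CPM minimum through osythdf3a alone and so had to differ there, and its difference is a description. LOC_Os06g40780 rose there as well, with 7.82 ± 0.67 CPM in osythdf3a and 2.27 ± 0.31 CPM in DJ (fitted log2 difference 2.03, SE 0.16). LOC_Os06g41060 fell to 2.83 ± 0.44 CPM in osythdf3a, against 46.7 ± 1.1 CPM in DJ (fitted log2 difference -3.82, SE 0.10), and LOC_Os06g40150 to 0.516 ± 0.058 CPM, against 9.25 ± 0.28 CPM in DJ (fitted log2 difference -3.91, SE 0.21).

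LOC_Os06g40150 was lower still in osythdf1a, with 3 counts in all, which put DJ 171-fold above it (exact 95% interval 58.2 to 832). LOC_Os06g38990 was at 0.0729 ± 0.034 CPM in osythdf1a and 10.4 ± 1.6 CPM in DJ (fitted log2 difference -6.79, SE 0.30, adjusted p = 6.24e-27, quasi-likelihood test of edgeR, Benjamini-Hochberg adjusted). LOC_Os06g38764, one of the members low in NIP, rose in osythdf1a to 9.96 ± 1.3 CPM, against 0.942 ± 0.15 CPM in DJ (fitted log2 difference 3.65, SE 0.19). LOC_Os06g39780 rose to 11.9 ± 0.68 CPM in osythdf1a, against 1.81 ± 0.074 CPM in DJ (fitted log2 difference 2.97, SE 0.15).

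In osythdf2a LOC_Os06g39240 rose to 51.5 ± 1.2 CPM (SD, n = 2), against 5.99 ± 1.6 CPM in DJ (SD, n = 3; log2 fold change 3.02, SE 0.11). LOC_Os06g36070 rose as well (log2 fold change 1.48), and LOC_Os06g36680 (-1.93) and LOC_Os06g39270 (-1.61) fell.

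Called neighbours formed short runs in these contrasts. The longest held 6 consecutive members, LOC_Os06g39690 to LOC_Os06g39744, all lower in RNAi-OsYTHDC1A than in the other lines labelled NIP, with log2 fold changes between -1.67 for LOC_Os06g39708 and -1.13 for LOC_Os06g39690. In osythdf1a 4 neighbours from LOC_Os06g37010 to LOC_Os06g37080 were lower than in DJ. LOC_Os06g41050 to LOC_Os06g41090 formed a run of 3 that was lower in osythdf1a and in osythdf3a than in DJ and higher in osythdf3c than in the other lines labelled NIP. LOC_Os06g38960 to LOC_Os06g38990, also 3 members, were lower in osythdf3a than in DJ, lower in OE-OsYTHDF1A and higher in osythdf3c than in the other lines. These runs were singled out after their values were seen and carry no test of their own.

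The 17 members low in NIP were followed through the same contrasts. Their rule left out members that are as low in any other group, which can favour few calls. Nothing is therefore read from their shares beside those of all genes. Between 1 and 3 of them were called in each of the 11 contrasts of DJ or of a line labelled NIP, or 5.88% to 17.6%, where the shares over all genes ran from 8.46% to 28.6%. In the lines labelled DJ 5 were called in osythdf1a (29.4%, background 36.1%), 5 in osythdf3a (29.4%, background 29.3%) and 3 in osythdf2a (17.6%, background 12%). The median log2 fold change of the 17 lay between -0.23 in osythdf3a and 0.30 in osythdf4c over the 14 contrasts. The extremes, 3.65 and -2.29, were both in osythdf1a.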

How the data were processed

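Total RNA of 2-week-old seedlings was made into paired-end libraries, per the labels' protocols. HISAT2 and featureCounts were used with the build IRGSP-1.0, per the submitters' processing notes. The sources used here give neither versions nor settings nor the use of strand, so overlapping, antisense and near-identical genes may share reads. The authors deposited whole-number counts per locus with no normalization, and FPKM computed from them. A further 40 columns per table belong to no sample analysed here and were left unused. Positions are the order of loci in the table, and no coordinates, names or sequences were available for the members: 0 of 224 IDs matched the reference gene table.

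CPM are counts divided by the library total. Members, lists and contrasts were chosen with earlier results of these data known. Values for NIP are descriptions on log2(CPM + 0.1). Contrasts without NIP were fitted to the counts with edgeR 4.0.16 under R 4.3.3 (TMM, filterByExpr, robust dispersions, two-sided quasi-likelihood test, Benjamini-Hochberg adjustment over all genes). There was 1 fit each for the 11 libraries labelled DJ, the 30 libraries of the lines labelled NIP and all 44 libraries. The steps were tested on simulated data. Members named per contrast were up to 2 each way with the largest fitted change, non-overlapping libraries and a mean of at least 5 CPM on the higher side. For NIP and the line states the ends of runs were named, and other loci were named after their values were seen. No replicate pair of the 43 was as close as counting noise (lowest chi-square per degree of freedom 1.55). Alternatives were DESeq2 1.42.0, DESeq2 size factors, no filter on low counts, library totals, a replicate block, each library left out, other pseudocounts, minimums and state limits.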

Additional observations from a re-analysis of the deposited data

How the results depend on the processing

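Of 166 alternative values of the counts, 146 stayed within 1.5 times the value reported. All 416 alternatives for named members kept the fitted direction and an adjusted p under 0.05, but the 2-fold minimum was not checked in them. In osythdf2b, leaving out a library brought the log2 fold change to -0.98 at LOC_Os06g36450 and to -0.997 at LOC_Os06g38480, under that minimum. The count of 20 members outside in NIP was 12 with a pseudocount of 1 CPM and 13 with a member minimum of 5 CPM. With a pseudocount of 1 CPM, 17 members had wild types at least 4-fold apart, and those on the DJ side numbered 13 in osythdf3c, 9 in osythdf1c, 8 in RNAi-OsYTHDF2C, 9 in osythdf5c, 8 in osythdf3b, 9 in osythdf4c, 15 in RNAi-OsYTHDC1A, 9 in osythdf2b, 14 in osythdf1b, 8 in OE-OsYTHDF1A, 9 in osythdf1a, 14 in osythdf2a and 9 in osythdf3a. With wild types at least 2-fold apart (83 members) they numbered 70 in osythdf3c, 45 in osythdf4c, 64 in RNAi-OsYTHDC1A, 72 in osythdf1b and 68 in osythdf2a. Both alternatives change how many members enter. The replicate block moved no count of called members by more than 1 (43 in osythdf1c, 52 in osythdf3b, 48 in osythdf4c, 34 in osythdf2a). Same-numbered libraries did not deviate together (correlations over 0.1 in 3 of 15 pairs labelled DJ and 21 of 135 pairs of lines labelled NIP), so the numbers were not taken as pairs. Leaving out 1 library at a time moved the counts by at most 1.24 times (22 to 26 in osythdf2b, 23 to 28 in RNAi-OsYTHDF2C, 87 to 90 in osythdf1a). Without 1 of its 2 libraries osythdf2a is assumed to vary like the other groups, with 30 to 35 members. Library totals, and the count without osythdf3a replicate 3, were added after seeing the data. Library totals put the median log2 fold change of all genes between -0.31 (OE-OsYTHDF1A) and 0.25 (RNAi-OsYTHDC1A), and changed no total of called members by over 1.5 times. Counts by direction did move by more, as in DJ against the lines (35 higher and 6 lower, against 31 and 13), osythdf3b, OE-OsYTHDF1A, RNAi-OsYTHDC1A, osythdf1b and osythdf3a. The balance of higher and lower calls turned in osythdf4c (25 and 21) and osythdf2b (14 and 10, and 12 and 11 with no filter on low counts) and became even in osythdf5c (11 and 11) and, with no filter on low counts (27 and 27) or the replicate block (26 and 26), in osythdf3b. At 1 CPM a gene rests on 13.5 counts in the smallest library, which limits the low members.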
